A study of Sus scrofa with 9 samples.

Results

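Transcription factors that set the state and lineage of T cells were read on 9 porcine microarrays of T cells sorted from blood. The set listed 9 genes. LEF1, TCF7 and ID3 are tied to the naive and early memory state, and ID2, GATA3, TBX21, FOXP3, STAT4 and BCL6 to effector and helper lineages. A member was every probe whose sequence accession belongs to one of these pig genes in an annotation of the assembly Sscrofa11.1. By this rule 6 of the 9 genes had a probe, with 16 probes among the 43603 probes that are not controls, and among 3052 genes named in the same way. LEF1 and FOXP3 had 3 probes each, ID2 had 5, GATA3 and STAT4 had 2 each and ID3 had 1. TCF7, TBX21 and BCL6 had no probe named by the rule and were not analysed here. Genome positions were not used here, because the files name no genome build.

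LEF1 and TCF7 are related proteins of the Wnt pathway that bind DNA through an HMG box and partner with beta-catenin, and in mouse and human T cells they are highest in naive cells and lower in effector cells. ID2 and ID3 bind E proteins and keep them from DNA, ID2 being linked in mice to effector and ID3 to memory precursor T cells. TBX21 and STAT4 drive the type 1 programme of interferon gamma, GATA3 the type 2 programme and the development of CD4 T cells, FOXP3 regulatory T cells and BCL6 follicular helper T cells. Pig blood, unlike that of mice and humans, is rich in T cells with both coreceptors, many of which are described as activated or memory helper cells.

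Below, DP stands for cells sorted as CD3+CD4+CD8+, the CD4 fraction for those sorted as CD3+CD4+ and the CD8 fraction for those sorted as CD3+CD8+. They were sorted from mononuclear cells of sow blood, isolated on Percoll, with 3 arrays per fraction that the labels call biological replicates. For the CD4 and CD8 fractions the labels list the markers carried and not those left out. The sources used here give neither the number and age of the sows nor whether arrays of different fractions shared an animal, so the p-values measure the spread between these arrays. From each sample 25 ng of RNA was amplified before Cy3 labelling. The stated comparisons set DP against each of the other fractions, and the CD4 fraction was also set against the CD8 fraction.

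Values are log2 of the array signal minus the log2 of that array's 75th percentile, so a value of 0 is the brightness of the 75th percentile. The percentile itself was a signal of 19.0 to 42.5 for DP, 15.2 to 84.1 for the CD4 fraction and 18.4 to 29.7 for the CD8 fraction, and so overlapped between fractions. A spot counts as detected where the scanner software marked it well above background, which held for 32.6% to 53.7% of the probes per array, and no spot was saturated. The sorting markers differed in the direction of their labels. CD4 had a log2 difference of 4.17 for DP minus CD8 (limma adjusted p = 0.0208), called with 2 of 2 tested probes. CD8A had 3.20 for DP minus CD4 (limma adjusted p = 0.0179), with 1 of 2. CD8A was also detected on all 3 CD4 arrays, at a mean of 0.27 against 3.47 in DP and 5.35 in the CD8 fraction. CD4 was detected on 1 of 3 CD8 arrays. All 6 named T cell genes were detected in every fraction, with summed linear levels of 136 to 254 for DP, 150 to 257 for the CD4 fraction and 171 to 254 for the CD8 fraction.

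Of the 16 probes, 12 passed the filter for testing, which asked for detection on all 3 arrays of at least 1 fraction. These were the 3 LEF1 probes, the 5 ID2 probes, the ID3 probe, 1 GATA3 probe and the 2 STAT4 probes. The ID3 probe and 1 ID2 probe passed through the CD8 fraction alone. The other GATA3 probe and all 3 FOXP3 probes did not pass and were read by detection only. At a limma adjusted p of 0.05 over all 16024 tested probes, 0 of the 12 member probes were called in any of the 3 comparisons. Over all tested probes, 0.293% were called in DP minus CD4 (0.225% higher and 0.0686% lower), 0.312% in DP minus CD8 (0.131% higher and 0.181% lower) and 0.437% in CD4 minus CD8 (0.112% higher and 0.325% lower). At an unadjusted limma p under 0.05, 3 member probes stood out in DP minus CD4, 4 in DP minus CD8 and 1 in CD4 minus CD8, where 4.84%, 6.52% and 4.54% of all tested probes did. The 3 probes in DP minus CD4 were the LEF1 probes, which read 1 gene, and those in DP minus CD8 were the same 3 with GATA3 probe 1, so each count covers 1 or 2 genes.

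**Figure D1:**
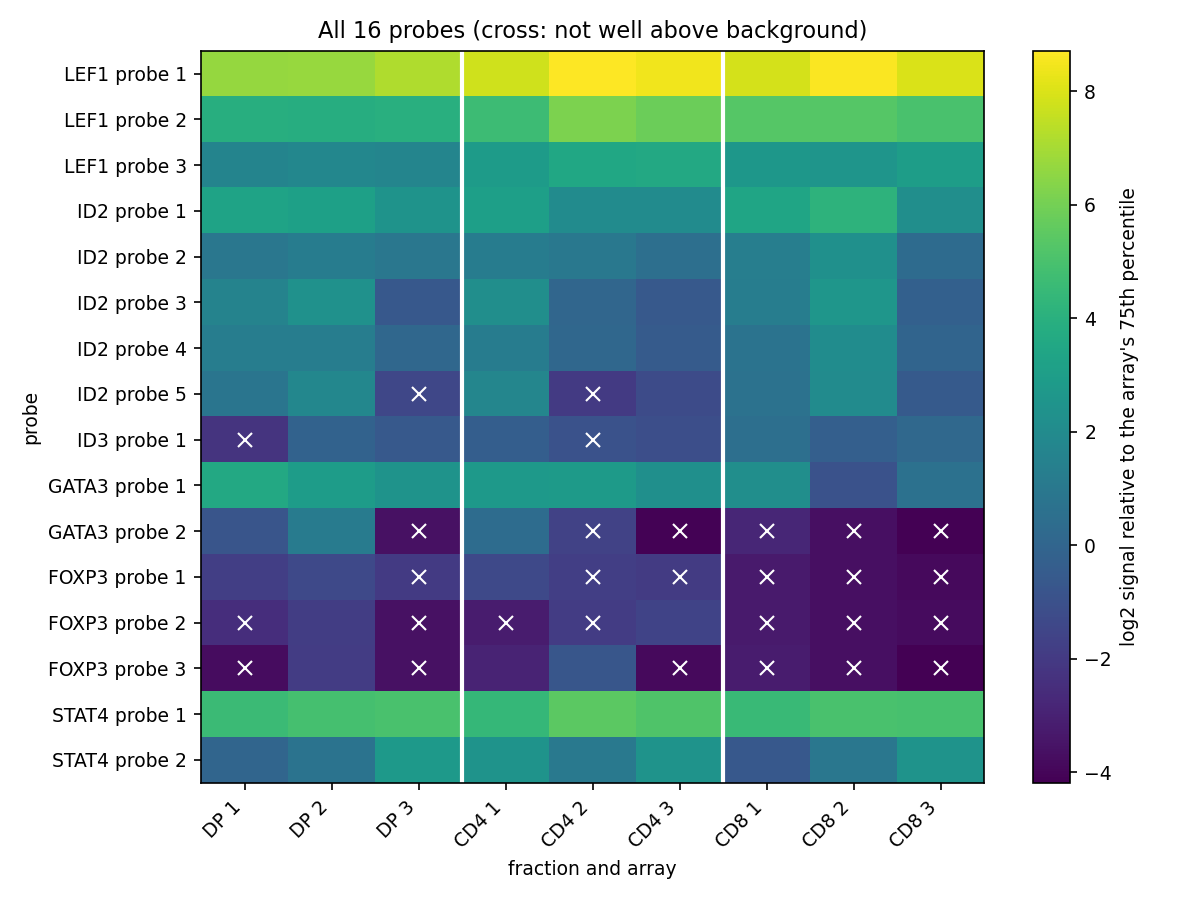
Colour gives the log2 signal relative to the array's 75th percentile for the 16 probes (down the page) on the 9 arrays (DP, CD4 and CD8 fractions from left to right), and a cross marks a spot that was not well above background. The FOXP3 probes and GATA3 probe 2 have crosses on all 3 CD8 arrays, while the LEF1 and STAT4 probes have none. Colours compare arrays within a probe, not probes with each other.

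LEF1 was lower in DP than in both other fractions on every array and with every probe, although no probe passed the adjusted threshold. Its brightest probe, A_72_P444744, stood at 6.68, 6.71 and 7.19 in DP, at 7.80, 8.71 and 8.43 in the CD4 fraction and at 7.90, 8.66 and 7.96 in the CD8 fraction. The highest DP array lay below the lowest array of either other fraction, and the CD4 and CD8 fractions overlapped. Probe 2, A_72_P110096, stood at 3.90, 3.87 and 3.97 in DP, at 4.66, 6.17 and 5.83 in the CD4 fraction and at 5.32, 5.30 and 5.02 in the CD8 fraction. The 3 DP arrays lay close together and again below the 6 others. Probe 3, A_72_P630053, stood at 1.62, 1.80 and 1.68 in DP, at 2.90, 3.47 and 3.61 in the CD4 fraction and at 2.66, 2.56 and 3.00 in the CD8 fraction. All 3 LEF1 probes were detected on all 9 arrays. Of all tested probes, 4.89% had the DP arrays below the CD4 arrays, 5.2% had them below the CD8 arrays and 1.77% had them below all 6 others. Fewer cells of a type and less RNA per cell cannot be told apart in sorted bulk samples such as these.

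Between DP and the CD4 fraction, the log2 difference of LEF1 was -1.45 (SE 0.35) for probe 1, -1.64 (SE 0.40) for probe 2 and -1.63 (SE 0.36) for probe 3, with limma adjusted p of 0.147, 0.143 and 0.0917. Probe 1 was thus 2.74-fold lower in DP, at a mean of 6.86 ± 0.29 against 8.31 ± 0.47 in the CD4 fraction (SD, n = 3 each). Between DP and the CD8 fraction the differences were -1.31 (SE 0.35), -1.30 (SE 0.40) and -1.04 (SE 0.36), with limma adjusted p of 0.226, 0.343 and 0.493. Probe 1 was 2.48-fold lower in DP, at 6.86 against 8.17 ± 0.42 in the CD8 fraction (SD, n = 3). CD4 minus CD8 was 0.14 (SE 0.35), 0.34 (SE 0.40) and 0.59 (SE 0.36), the arrays of these fractions overlapped for each probe, and the 95% interval of probe 1 ran from -0.63 to 0.91. Without CD4 replicate 1, the lowest CD4 array for all 3 probes, probe 2 passed between DP and the CD4 fraction (-2.09, limma adjusted p = 0.0452).

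The 9 arrays lay on 3 slides, of which slide 2 and slide 3 held all fractions and slide 1 held DP replicate 1 alone. Within slide 2, LEF1 probe 1 was lower in DP by a log2 difference of -2.01 from the CD4 fraction and of -1.57 from the CD8 fraction. Within slide 3 the differences were -0.92 and -0.77. The direction was the same on both slides, each of which held a single DP array. With slide as a fixed block, probe 1 gave -1.40 for DP minus CD4 and -1.19 for DP minus CD8. With a normexp background correction in place of the scanner's, probe 3 gave -0.55 for DP minus CD8.

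**Figure D2:**
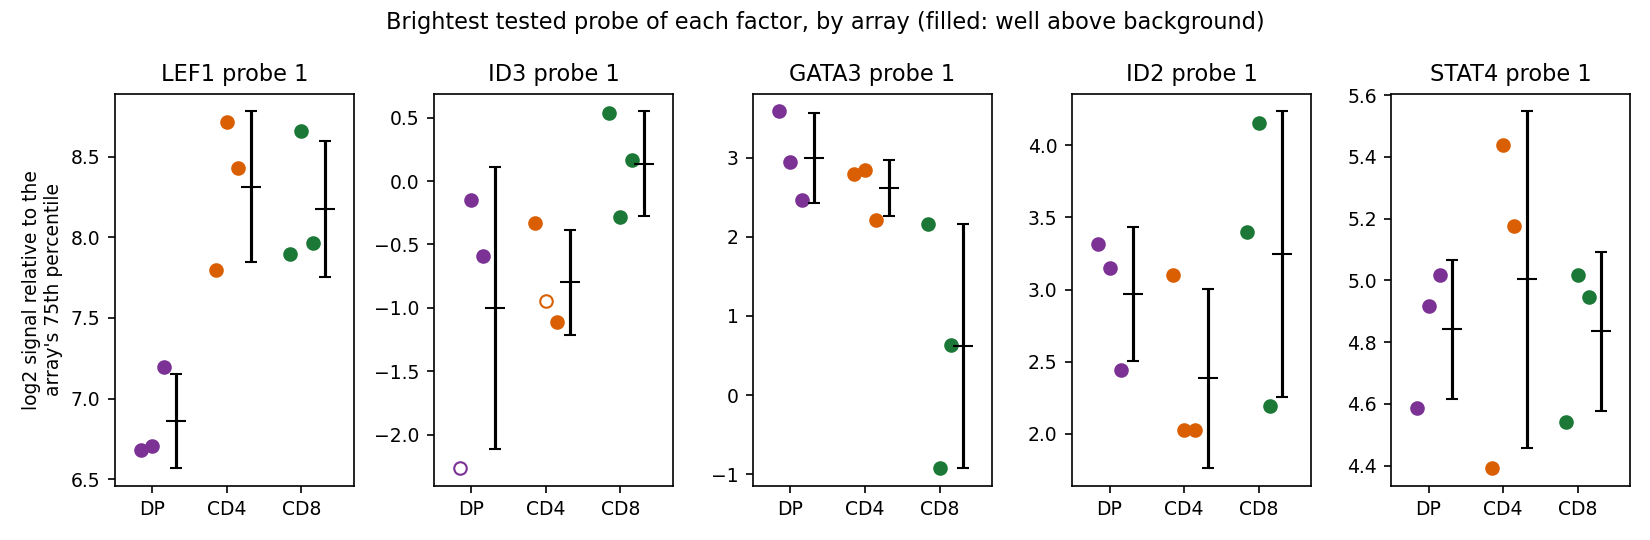
Points are single arrays of DP, the CD4 fraction and the CD8 fraction for the brightest tested probe of 5 factors, filled where the spot was well above background, with the mean and SD of 3 arrays beside them and log2 signal relative to the 75th percentile on the vertical axis. The highest LEF1 point of DP is at 7.19 and the lowest of the others at 7.80. The GATA3 points of the CD8 fraction lie at or below 2.16, under all other GATA3 points.

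ID3, the other naive-state factor with a probe, was dim. Its probe A_72_P225977 stood at -2.26, -0.15 and -0.59 in DP, at -0.33, -0.95 and -1.11 in the CD4 fraction and at 0.54, -0.29 and 0.16 in the CD8 fraction. It was not detected on DP replicate 1 or CD4 replicate 2. DP overlapped both other fractions, while the CD4 arrays lay below the CD8 arrays, as 4.24% of all tested probes did. The log2 difference was -0.20 (SE 0.59) for DP minus CD4, -1.14 (SE 0.59, limma adjusted p = 0.847) for DP minus CD8 and -0.94 (SE 0.59) for CD4 minus CD8. The 95% interval of DP minus CD4 ran from -1.49 to 1.08, which leaves room for a difference of the size seen in LEF1. Without DP replicate 1 that difference was 0.43 and without CD4 replicate 1 it was 0.03, so its sign rested on either array. Within slides DP minus CD8 was -0.28 on slide 2 and -0.75 on slide 3.

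GATA3 showed the other pattern among the factors, with the CD8 fraction below the rest. Its probe A_72_P441659 stood at 3.58, 2.94 and 2.46 in DP, at 2.80, 2.85 and 2.21 in the CD4 fraction and at 2.16, -0.92 and 0.63 in the CD8 fraction, and was detected on all 9 arrays. The DP and CD4 arrays overlapped, and all 3 CD8 arrays lay below both, as they did for 1.3% of all tested probes (4.59% for DP above the CD8 fraction and 3.78% for CD4 above it). The lowest CD4 and the highest CD8 array lay side by side, and the CD8 arrays spread over more than 3 log2 units. Mean levels were 3.00 ± 0.56 for DP, 2.62 ± 0.35 for the CD4 fraction and 0.63 ± 1.54 for the CD8 fraction (SD, n = 3 each).

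DP exceeded the CD8 fraction in GATA3 by a log2 difference of 2.37 (SE 0.64, 5.17-fold), which did not pass (limma adjusted p = 0.226). The CD4 fraction exceeded the CD8 fraction by 1.99 (SE 0.64, 3.98-fold, limma adjusted p = 0.519). DP minus CD4 was 0.38 (SE 0.64), with a 95% interval from -1.005 to 1.76. Leaving out single arrays moved DP minus CD8 between 1.60 and 3.14, and within slides DP minus CD8 was 2.32 on slide 2 and 1.83 on slide 3. CD4 minus CD8 was 2.22 on slide 2 and 1.87 on slide 3, and 1.13 with the normexp background correction. The CD8 fraction also held more B cell signal than the others, with summed linear levels of 3 B cell genes at 0.437 to 2.86 for DP, 1.09 to 2.31 for the CD4 fraction and 5.40 to 12.4 for the CD8 fraction. The part of these cells in the GATA3 values was not tested.

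The second GATA3 probe, A_72_P177421, was near the background. It was detected on 2 of 3 DP arrays, on 1 of 3 CD4 arrays and on 0 of 3 CD8 arrays. Its DP mean of -1.08 over 3 arrays was at least 1.24-fold above the CD8 fraction, for which only a bound exists, at -1.40, while the measured CD8 mean was -3.56. This bound sets the brighter fraction against the lowest signal among detected probes on each dim array. Across the 9 arrays the GATA3 probes had a Pearson r of 0.617.

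FOXP3, the defining factor of regulatory T cells, was at the edge of detection. Probe 1, A_72_P441214, stood at -1.78, -1.37 and -1.98 in DP, at -1.36, -1.79 and -1.95 in the CD4 fraction and at -3.27, -3.68 and -3.85 in the CD8 fraction. It was detected on 2 of 3 DP arrays, 1 of 3 CD4 arrays and 0 of 3 CD8 arrays. Probe 2 was detected on 1 DP array, 1 CD4 array and 0 CD8 arrays, and probe 3 on 1 DP array, 2 CD4 arrays and 0 CD8 arrays. Thus no FOXP3 probe was detected on a CD8 array, and each was detected on some array of both fractions that carry CD4. No fold is given, because the bound of the CD8 arrays, at a log2 mean of -1.40, lay above the DP and CD4 means of all 3 probes. The difference between the fractions was therefore not measurable at this signal over background.

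STAT4, which carries the interleukin 12 signal towards the type 1 programme, was detected on all 9 arrays and did not differ detectably. Probe 1, A_72_P305704, stood at 4.59, 4.92 and 5.02 in DP, at 4.39, 5.44 and 5.18 in the CD4 fraction and at 4.54, 5.02 and 4.95 in the CD8 fraction. All fractions overlapped. The log2 differences were -0.16 for DP minus CD4, 0.01 for DP minus CD8 and 0.17 for CD4 minus CD8 (SE 0.36 each), and the 95% interval of DP minus CD8 ran from -0.78 to 0.79. Probe 2, A_72_P555222, stood at 0.03, 0.73 and 2.76 in DP, at 2.45, 1.01 and 2.46 in the CD4 fraction and at -0.65, 0.94 and 2.43 in the CD8 fraction. Its arrays spread widely within each fraction, its differences lay between -0.80 and 1.06 (SE 0.81), and its r with probe 1 over the 9 arrays was 0.262.

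ID2, the effector-linked inhibitor, was read by 5 probes. The brightest, A_72_P077756, stood at 3.32, 3.15 and 2.44 in DP, at 3.10, 2.02 and 2.03 in the CD4 fraction and at 3.40, 4.15 and 2.19 in the CD8 fraction, and was detected on all 9 arrays. The fractions overlapped. Over the 5 probes the log2 difference lay between 0.10 and 0.88 for DP minus CD4, between -0.34 and -0.03 for DP minus CD8 and between -1.22 and -0.39 for CD4 minus CD8. The CD4 fraction had the lowest mean for each probe, but none of these differences exceeded the spread between arrays. For probe 1 the 95% interval of DP minus CD4 ran from -0.54 to 1.71. Probe 5 was not detected on DP replicate 3 or CD4 replicate 2. The probes moved together from array to array, with pairwise r of 0.653 to 0.952.

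**Figure D3:**
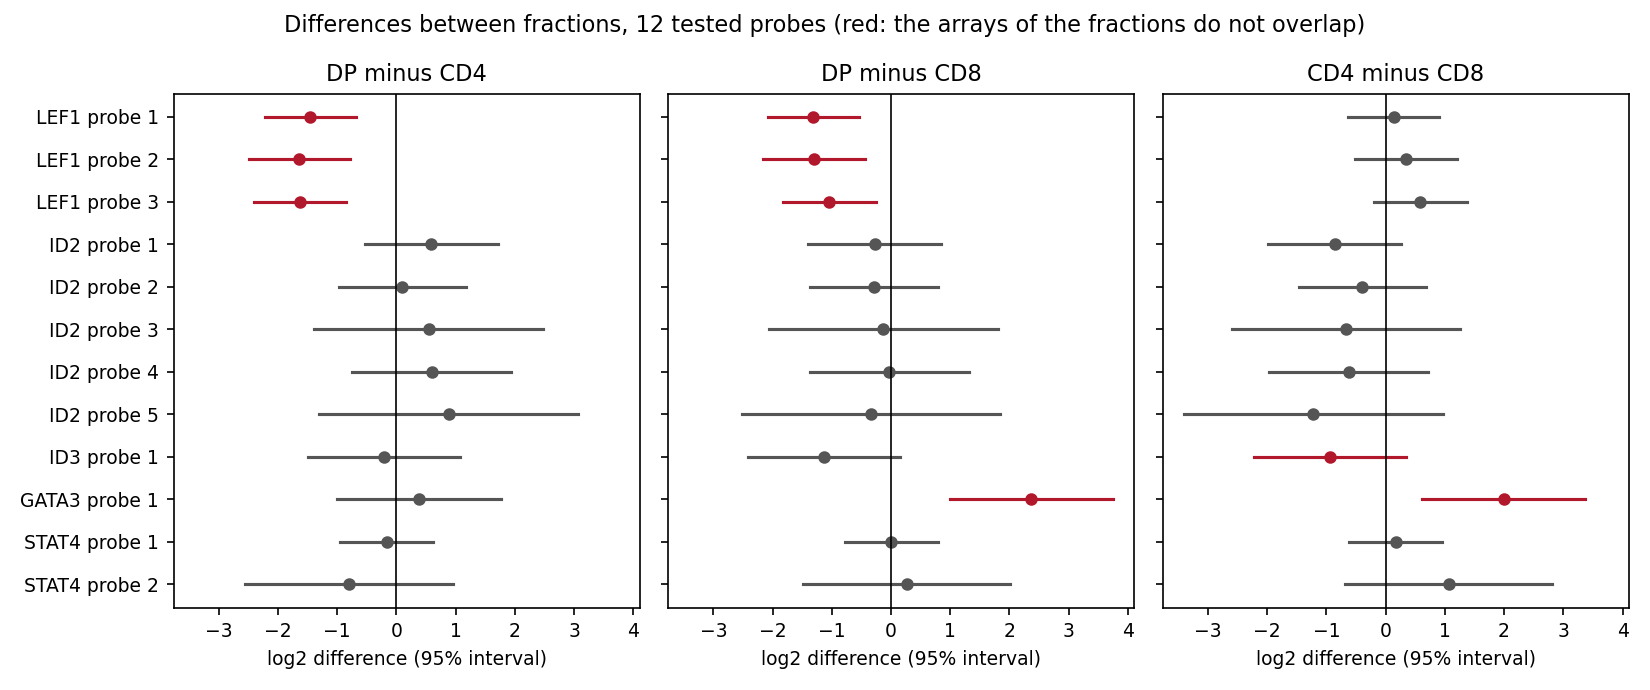
Points are the log2 differences of the 12 tested probes in the 3 comparisons, with bars for the 95% interval from limma, and red marks probes whose arrays do not overlap between the fractions. The LEF1 probes lie at -1.04 or below in DP minus CD4 and DP minus CD8, and the GATA3 probe at 2.37 in DP minus CD8 and 1.99 in CD4 minus CD8. An interval that leaves out 0 is not a call, since no probe passed after adjustment.

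To set the naive-state factors against the others, each gene's brightest tested probe was centred on its mean over the 9 arrays. The median of ID2, GATA3 and STAT4 was then taken from the median of LEF1 and ID3 on each array. The resulting difference was -1.85, -0.62 and -0.44 in DP, -0.11, -0.28 and -0.09 in the CD4 fraction and 0.52, 0.45 and 1.12 in the CD8 fraction. The 3 fractions did not overlap, with DP lowest and the CD8 fraction highest. The mean was -0.97 ± 0.77 for DP, -0.16 ± 0.10 for the CD4 fraction and 0.70 ± 0.37 for the CD8 fraction (SD, n = 3 each). The lowest DP value came from replicate 1, on which ID3 was not detected. Without that array DP minus CD4 was -0.37 instead of -0.81. TCF7, TBX21, FOXP3 and BCL6 are absent from this value, which holds 2 naive-state genes and 3 others. ID3 was admitted by its detection in the CD8 fraction, where it is highest, so the place of the CD8 fraction rests in part on the filter.

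**Figure D4:**
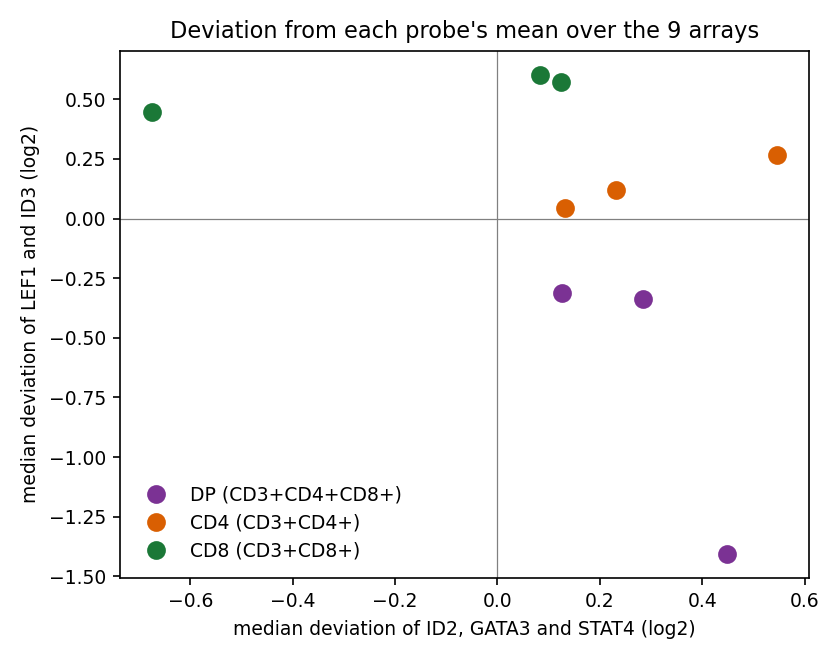
Each point is an array, with the median deviation of LEF1 and ID3 on the vertical axis and of ID2, GATA3 and STAT4 on the horizontal axis, both in log2 units around the probe's mean over the 9 arrays. The DP points lie below 0 on the vertical axis and the other 6 points above it, while on the horizontal axis only 1 CD8 point is below 0.

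LEF1 was also set against the other factors across the 9 arrays. Its Pearson r was -0.57 with GATA3, 0.48 with STAT4, 0.24 with ID3 and -0.18 with ID2, where points share fractions and array brightness. Among the 1506 other named genes tested, those most like LEF1 were SOD1, the cytosolic superoxide dismutase (r = 0.925), and LMO4, a LIM-domain transcription cofactor (r = 0.907). Both had lower DP means than in the other fractions, and neither was called. Those most like GATA3 were ARPC1B, a subunit of the actin-branching Arp2/3 complex, and CD1D, which presents lipids to natural killer T cells (r = 0.947 each). ID2 was most like PLP2 (0.940) and MTDH (0.928), STAT4 like the microtubule-binding MAPRE1 (0.925) and the thioredoxin inhibitor TXNIP (0.903), and ID3 like the growth factor binding protein IGFBP2 (0.757).

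None of the tested genes around the naive-state factors was called. In the list of naive and central memory surface genes, 5 of 8 were named and tested, 0 were called in any comparison, and the median log2 difference was -0.49 for DP minus CD4, -0.11 for DP minus CD8 and 0.37 for CD4 minus CD8. The median over all tested probes was -0.02, -0.03 and -0.01. CCR7, the homing receptor for lymph nodes, stood at 2.45, 2.72 and 2.33 in DP, at 3.68, 3.92 and 4.34 in the CD4 fraction and at 2.82, 3.01 and 3.34 in the CD8 fraction. As for LEF1, its 3 DP arrays lay below the 6 others, as they did for 1.77% of all tested probes. Its difference of -1.48 for DP minus CD4 did not pass (SE 0.35, limma adjusted p = 0.140).

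Other genes of naive cells differed in other ways. CD28, a costimulatory receptor of the same list, differed by 1.47 for DP minus CD8 (SE 0.45, limma adjusted p = 0.335). The regulators of naive and quiescent cells, with 4 of 14 named and tested, had 0 called. Their medians were 0.20, 0.34 and 0.24 for DP minus CD4, DP minus CD8 and CD4 minus CD8, and the smallest p belonged to KLF7 in CD4 minus CD8 (-0.65, SE 0.48). Among partners and targets of LEF1 and TCF7, 3 of 10 were tested and 0 were called. CTNNB1, which encodes beta-catenin, differed by -0.46 (SE 0.39) for DP minus CD4 and MYC, a Wnt target, by -0.58 (SE 0.43) for DP minus CD8. Of the E proteins and other ID genes, 1 of 5 was tested, ID4, with 0 called and a difference of 0.34 (SE 0.67) for DP minus CD4.

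Genes tied to TBX21 and the type 1 programme set DP and the CD8 fraction apart from the CD4 fraction. Of 18 listed, 12 were named and 11 tested. DP minus CD4 had 4 called higher, 0 lower and 7 not called, and all 11 differences were above 0, with a median of 3.64. DP minus CD8 had 0 called and a median of 0.42. CD4 minus CD8 had 5 called lower, 0 higher and 6 not called, with a median of -3.33. With genes that were not detected on any CD4 array, such as the chemokine gene CCL4, at their bound, the medians that involve the CD4 fraction were 2.37 for DP minus CD4 and -2.80 for CD4 minus CD8.

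IFNG, the gene of interferon gamma, stood at 1.85, 1.21 and 1.28 in DP, at -3.09, -2.45 and -2.99 in the CD4 fraction and at 1.81, 0.91 and 0.05 in the CD8 fraction. It was detected on 1 of 3 CD4 arrays and on all others. S1PR5, a sphingosine phosphate receptor whose expression in mouse lymphocytes depends on TBX21, stood at 4.63, 2.50 and 2.27 in DP, at -0.63, -2.78 and -1.76 in the CD4 fraction and at 2.89, 3.31 and 1.94 in the CD8 fraction. Both were called higher in DP than in the CD4 fraction, by 4.29 (SE 0.52, limma adjusted p = 0.00589) and 4.86 (SE 0.69, limma adjusted p = 0.0131). The chemokine gene CCL5 and KLRK1, an activating receptor of cytotoxic cells, were called in the same direction. Of the 2 tested CCL5 probes 1 was called there, and of the 2 tested S1PR5 probes 2 were. GZMH, a granzyme of cytotoxic granules, was called lower for CD4 minus CD8 (-4.47, SE 0.62, limma adjusted p = 0.00661) and had 2.53 (SE 0.62, limma adjusted p = 0.147) for DP minus CD4. Of its 2 tested probes, 1 was called for CD4 minus CD8.

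The calls between DP and the CD4 fraction were lost without DP replicate 1, where 0 of the 11 type 1 genes were called at a median of 3.42, and with slide as a fixed block, where 0 were called at a median of 3.06. With the normexp background correction 0 were called in any comparison, at medians of 1.30 for DP minus CD4 and -0.95 for CD4 minus CD8. Where detection on all 9 arrays was asked, 4 of the genes were left. Of these, 0 were called in DP minus CD4, at a median of 2.02. GZMH alone was called in CD4 minus CD8, at a median of -1.66. Without CD8 replicate 1, TNF alone was called for DP minus CD8. Summed linear levels of 5 natural killer cell genes were 37.3 to 95.9 in DP, 6.22 to 13.3 in the CD4 fraction and 24.2 to 55.7 in the CD8 fraction, which was mostly FCGR3A. NCR1, a defining receptor of natural killer cells, was not detected on any array. The part of these cells in the type 1 values was not tested.

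**Figure D5:**
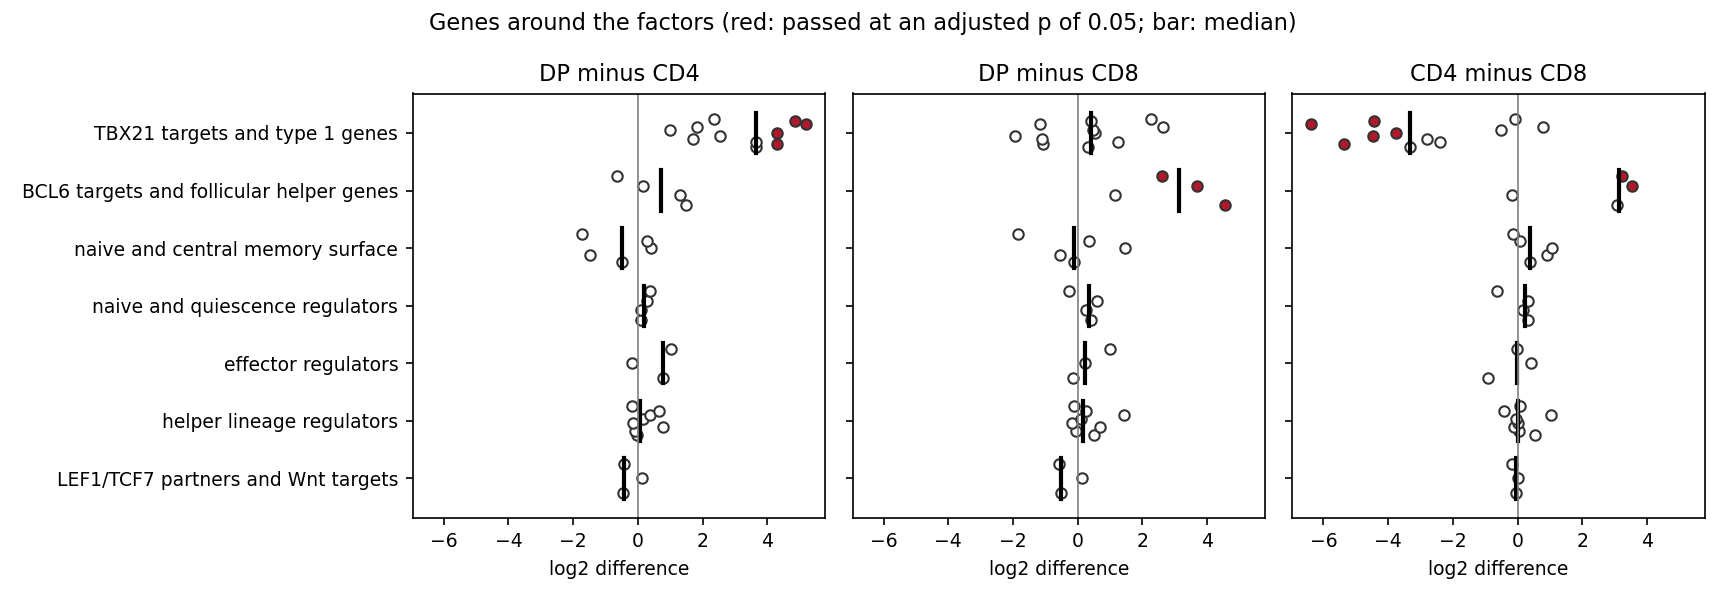
Points are the log2 differences of tested genes in 7 lists around the factors, each gene by its brightest tested probe, filled red where the limma adjusted p was under 0.05, with a bar at the list's median. The type 1 list has 4 filled points in DP minus CD4 and 5 in CD4 minus CD8, and the BCL6 list has 3 in DP minus CD8 and 2 in CD4 minus CD8. The other 5 lists have none.

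Of 11 listed genes tied to BCL6 and follicular helper cells, 6 were named and 4 tested, and IL21 was not detected on any array. DP minus CD8 had 3 called higher, 0 lower and 1 not called, with a median of 3.14. CD4 minus CD8 had 2 called higher and 2 not called, with a median of 3.15, and DP minus CD4 had 0 called. ICOS, a costimulatory receptor of helper cells, was not called in any comparison, at 1.31 for DP minus CD4, 1.15 for DP minus CD8 and -0.16 for CD4 minus CD8. CD40LG, the ligand by which helper cells activate B cells, stood at 5.05, 4.12 and 3.19 in DP, at 2.68, 3.09 and 2.18 in the CD4 fraction and at 0.91, -0.81 and -1.35 in the CD8 fraction. Each DP array lay above each CD4 array, as 5.22% of all tested probes did. Both fractions lay above the CD8 fraction, as 4.59% of all tested probes did for DP and 3.78% for the CD4 fraction. The CD40LG difference was 4.54 (SE 0.61, limma adjusted p = 0.00928) for DP minus CD8 and 1.47 (SE 0.61, limma adjusted p = 0.830) for DP minus CD4.

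IL6R and IL6ST encode the interleukin 6 receptor and rose in DP against the CD8 fraction by 3.69 (SE 0.65, limma adjusted p = 0.0429) and 2.59 (SE 0.48, limma adjusted p = 0.0452). For CD4 minus CD8 they were also called higher, by 3.54 (SE 0.65, limma adjusted p = 0.0337) and 3.23 (SE 0.48, limma adjusted p = 0.00928). In each of these comparisons 2 of 3 tested IL6R probes and 1 of 2 tested IL6ST probes were called. IL6R was detected on 1 of 3 CD8 arrays and IL6ST on 2 of 3. For DP minus CD8, CD40LG alone was called with the percentile over detected probes, quantile normalization, the deposited table, detection on all 9 arrays or only the fractions compared, and without DP replicate 2 or 3, CD4 replicate 2 or 3, or CD8 replicate 1. The IL6ST call was also lost without the variance trend, without CD4 replicate 1, without CD8 replicate 3 and with the other numbering of the CD8 arrays in the replicate block. Without DP replicate 1 or CD8 replicate 2, or with slide as a fixed block or normexp, 0 of the 4 genes were called for DP minus CD8, at medians of 3.21, 2.69, 3.16 and 1.24. For CD4 minus CD8, 0 were called without CD4 replicate 2, without CD8 replicate 2, with normexp or with detection on all 9 arrays, at medians of 2.94, 2.79, 1.37 and 1.45. There, 1 was called without DP replicate 1, CD4 replicate 1, CD4 replicate 3 or CD8 replicate 1, with the percentile over detected probes and in the deposited table.

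Among the 17 listed regulators of helper lineages, 8 were tested and 0 were called, with medians of 0.06, 0.17 and 0.02 for DP minus CD4, DP minus CD8 and CD4 minus CD8. STAT5A, which carries interleukin 2 signals, had the smallest p at 1.42 (SE 0.54, limma adjusted p = 0.604) for DP minus CD8. Of 14 effector regulators 3 were tested and 0 were called, and KLF6 differed by 1.02 for DP minus CD4 (SE 0.48). Of 9 genes tied to GATA3 and type 2 cytokines, IL4, IL13 and IL9 were not detected on any array and IL5 alone was tested, at -1.59 (SE 0.74) for CD4 minus CD8, and not called. Of 10 genes tied to FOXP3, 2 were tested and 0 were called. IL10, an inhibitory cytokine, differed by 2.72 (SE 1.11, limma adjusted p = 0.799) for DP minus CD4, but passed the filter through DP alone and was detected on 3 of 3 DP arrays, 1 of 3 CD4 arrays and 2 of 3 CD8 arrays. IL2RA, the high-affinity interleukin 2 receptor chain, was not detected on any array. CTLA4 and ENTPD1 of the same list did not pass the filter. Each was detected on 0 of 3 DP arrays, 2 of 3 CD4 arrays and 1 of 3 CD8 arrays.

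Markers of other cells were read beside these values. Summed linear levels of 7 monocyte and granulocyte genes were 0.795 to 4.52 in DP, 2.09 to 2.19 in the CD4 fraction and 1.01 to 6.55 in the CD8 fraction. Of these genes, LYZ was detected on 7 of 9 arrays, S100A12 on 6, CD14 on 5 and FCN1 on 3. CD163, S100A8 and S100A9 were detected on no array. Of the markers of immature thymocytes, which also carry both CD4 and CD8, PTCRA and RAG2 were detected on no array, while RAG1 was detected on all 9 and was not called in any comparison. CD163L1, the one named marker of gamma delta T cells, was detected on no array.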

How the data were processed

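The deposited scanner files hold an intensity per spot on a linear scale, from Agilent Feature Extraction 11.0.1.1, which had corrected it for background and spatial trend, per the file headers. The deposited series table holds log2 values made by an unstated program; all its columns had a median of 2.60, its DP and CD4 columns followed their own scanner files, and its 3 CD8 columns followed each other's. Flags other than a number (detection, saturation, outliers) are also deposited, per the file headers, and control and outlier spots were left out.

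Here log2 processed signal minus each array's 75th percentile was computed, spots of a probe were averaged, and probes detected on all 3 arrays of a fraction, with at least 2 values per fraction, were tested: 16024 of 43603. Probes were named through the unversioned accession, which named 6730 probes. limma 3.58.1 in R 4.3.3 (lmFit, eBayes with trend, no block, 9 arrays in 1 fit, two-sided) gave p-values, adjusted by Benjamini-Hochberg over all tested probes at 0.05. With 3 arrays per fraction an exact permutation test cannot go below 0.1, so none was used. The number of arrays limits the precision. A gene stands by its tested probe with the highest mean, every member probe is described, up to 4 called genes of each further list are named, or the one with the smallest p, and the genes most alike are the 2 with the highest r. Some genes that these rules name are not reported here. CCL4, CD28, ICOS, TNF, MYC, IL4, IL13, IL9, IL2RA, IL21, CTLA4, ENTPD1, LYZ, S100A12, CD14 and FCN1 were named after their values were seen. The members and lists were chosen with earlier results of these data known.

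Same-numbered DP and CD8 arrays deviated together (r of 0.27, 0.33 and 0.33), which is only a hint from the data that they are paired. DP and CD8 replicates 2 shared slide 2 and replicates 3 shared slide 3, so pairing and slide cannot be told apart for them. The deposited table numbers the CD8 arrays otherwise. Same-numbered arrays of DP and CD4 (0.31, -0.07 and 0.65) and of CD4 and CD8 (-0.03, 0.14 and 0.39) did not all deviate together. Alternatives were the percentile over probes detected on all arrays, quantile normalization, normexp with an offset of 50 on spot and background medians (spot means are not used here), the deposited table, no filter, detection on all 9 arrays, no variance trend, only the fractions compared, replicate and slide blocks, and each array left out.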

Additional observations from a re-analysis of the deposited data

How the results depend on the processing

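No member probe passed between DP and the CD8 fraction or between the CD4 and CD8 fractions under any of the alternatives run. For DP minus CD4 the replicate block called 1 probe, LEF1 probe 3 (-1.63, limma adjusted p = 0.0441), against 0 without it. Whether the replicate numbers pair the arrays is not known. With CD8 arrays numbered as in the deposited table the block called 0. Leaving out single arrays gave 0 to 1 call, the 1 being LEF1 probe 2 without CD4 replicate 1 (-2.09). The LEF1 differences of DP kept their sign under all alternatives run, and GATA3 probe 1 likewise. The difference of naive-state and other factors for CD4 minus CD8 was -0.39 with normexp against -0.86. Signs turned for ID2 in DP minus CD8: probe 3 with normexp (0.17), probe 4 with the percentile over detected probes (0.021), quantile normalization (0.015), normexp (0.12) and the deposited table (0.013), and probe 5 with normexp (0.076). With slide as a fixed block they turned in DP minus CD4 for ID3 (0.42) and STAT4 probe 2 (0.090). Leaving out single arrays spanned 0 in CD4 minus CD8 for LEF1 probe 1 (-0.059 to 0.40), ID2 probe 2 (-0.89 to 0.094), ID2 probe 3 (-1.48 to 0.019) and STAT4 probe 1 (-0.050 to 0.47). It did so in DP minus CD8 for ID2 probe 1 (-0.80 to 0.18), probe 2 (-0.79 to 0.20), probe 3 (-0.85 to 0.72), probe 4 (-0.52 to 0.55) and probe 5 (-1.03 to 0.58), STAT4 probe 1 (-0.14 to 0.13) and STAT4 probe 2 (-0.53 to 1.03). In DP minus CD4 it did so for ID2 probe 2 (-0.090 to 0.26), ID2 probe 3 (-0.074 to 1.39), ID3 (-0.63 to 0.43) and STAT4 probe 1 (-0.47 to 0.056). The cause was not tested.

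Calls over all tested probes in DP minus CD4, DP minus CD8 and CD4 minus CD8 numbered 47, 50 and 70. They were 144, 83 and 110 with the replicate block, 2, 2 and 38 with slide as a fixed block, 1, 7 and 6 with normexp, 109, 87 and 97 with no filter, 12, 5 and 12 with detection on all 9 arrays, 43, 22 and 57 with the percentile over detected probes, 46, 24 and 66 in the deposited table, 29, 22 and 69 with only the fractions compared, and 2, 1 and 48 without DP replicate 1. For the type 1 list the replicate block called 6 genes in DP minus CD4 and no filter 7, against 4, and normexp called 0 in each comparison. The BCL6 list had 0 called with normexp and 1 with quantile normalization in DP minus CD8, against 3. FOXP3 and GATA3 probe 2 lie at the background, so only detection can be compared for them.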
